A study of Mus musculus with 6 samples.

Results

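This account covers 10 genes of ganglioside and glycosphingolipid metabolism in mouse hepatic stellate cells: St3gal5, Ugcg, B4galt5, B4galt6, B4galnt1, St8sia1, St3gal2, B3galt4, A4galt and Neu3. They were found by symbol among the 24940 genes of the deposited exon count table, and all 10 were present. The genes were chosen from the pathway with the fold changes of OCA over DMSO in these same libraries already known, so their changes are given as a description, without p-values. RNA was sequenced in 6 libraries of primary hepatic stellate cells, pericytes of the liver sinusoid that store vitamin A, isolated from female mice of the strain C57BL/6JBomTac. On day 2 after isolation, cells of 3 libraries received 10 µM obeticholic acid (OCA), a bile acid derivative that activates the nuclear receptor FXR, and cells of the other 3 received an equal volume of the solvent DMSO. All were harvested 6 hours later, and the replicates carry the letters A, B and C. The age of the mice and any pooling of animals are not stated in the labels. Nor do the labels tie a library to its own mouse or dish, so a p-value speaks only of how far these libraries scatter, and that scatter may be technical.

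Glycosphingolipids are lipids of the outer leaflet of the plasma membrane in which a sugar chain is attached to ceramide. Glucosylceramide synthase adds the first sugar, lactosylceramide synthases add galactose, and lactosylceramide then enters one of several series. Addition of sialic acid by St3gal5 gives GM3, the root of most gangliosides, while addition of galactose by A4galt gives globotriaosylceramide, the root of the globo series. Later enzymes extend GM3 to GM2, GM1, GD1a and GD3, and sialidases such as Neu3 remove sialic acid again. GM3 is known for modulating growth factor and insulin receptors in the membrane.

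The libraries held 12260882 to 16336240 counts. Levels are in counts-per-million (CPM) of the scaled library size, in which the 3-count floor of a library is 0.181 to 0.251. Intervals and such floors cover counting error only. The FXR target Abcb11, the bile salt export pump, served as a check of the treatment, with 0.149 ± 0.0447 CPM in DMSO and 4.88 ± 0.602 CPM in OCA (SD, n = 3). Nr1h4, the gene of FXR itself, fell from 84.0 ± 2.39 to 65.8 ± 2.62 CPM (edgeR adjusted p = 0.00535). All 10 stellate markers were detected, with a summed level of 2691 to 2973 CPM in DMSO and 2549 to 2886 CPM in OCA. Of the 10 stellate markers, Reln (547 ± 73.6 to 325 ± 143 CPM) and Rgs5 were called lower, as was Col1a2 among 4 markers of activation. Of all tested genes, 3.03% were called lower. The other markers of these lists were not called. Lrat, Des, Hgf, Ngfr, Colec11, Vim, Acta2 and Timp1 had log2 fold changes above 0, and Pdgfrb, Dcn and Col1a1 below 0. The part of these markers in the results was not tested. The 6 hepatocyte markers summed to at most 5.55 CPM, the 6 macrophage markers to at most 12.04 CPM, the 6 endothelial markers to at most 1.95 CPM, the 4 cholangiocyte markers to at most 7.48 CPM, most of it Spp1, and the 4 lymphocyte markers to at most 0.383 CPM. Tat, Nkg7, Krt7 and Thy1 had no count. The 4 markers of portal fibroblasts and mesothelium summed to between 112 and 133 CPM in DMSO and between 49.0 and 102 CPM in OCA. Nearly all of that sum was Fbln2, and the other 3 markers were at or near 0. Fbln2 was itself called lower (126 ± 11.6 to 67.0 ± 30.6 CPM, edgeR adjusted p = 0.00416). In bulk RNA, fewer cells of a type and less RNA per cell cannot be told apart. DMSO A and OCA B stood above the others of their groups for long transcripts: over the 1586 tested genes of 5780.5 bases or more, the median deviation from the group mean was 0.09 (log2 CPM) in DMSO A and 0.06 in OCA B, against -0.07 to -0.02 in the other 4 libraries. Fits with offsets for transcript length, and without DMSO A and OCA B, are given below. Beyond these fits, the part of this difference in the results was not tested.

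The 2 genes whose groups lay farthest apart relative to their spread use the same substrate, so the promoter stretch of each is shown: 200 bases, from 250 to 51 bases before the start site in the RefSeq table (build GRCm38.p6, the mm10 assembly), and neither stretch overlaps an annotated exon. The table held 7 of the 10 genes, and the window of Ugcg lies wholly within annotated exon sequence. St3gal2, B4galt6 and B4galnt1 were not matched. The St3gal5 stretch is chr6:72097358-72097557 (plus strand) and the A4galt stretch is chr15:83251780-83251979 (minus strand), each written 5′ to 3′. Capitals mark letters that match a searched motif on either strand.
St3gal5: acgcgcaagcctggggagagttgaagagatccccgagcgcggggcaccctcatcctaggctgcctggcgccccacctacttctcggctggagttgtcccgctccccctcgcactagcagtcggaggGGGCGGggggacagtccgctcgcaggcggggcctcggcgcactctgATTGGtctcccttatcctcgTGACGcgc
A4galt: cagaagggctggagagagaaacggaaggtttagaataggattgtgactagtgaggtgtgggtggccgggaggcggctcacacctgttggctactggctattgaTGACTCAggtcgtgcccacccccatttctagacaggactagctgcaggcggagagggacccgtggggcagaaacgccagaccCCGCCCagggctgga

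The motifs searched were the FXR half-site (AGGTCA), 2 such half-sites as an inverted repeat with 1 base between them, the GC box (GGGCGG), the CCAAT box (CCAAT), the cyclic AMP response element half-site (TGACG) and the AP-1 site (TGANTCA). Over all 32851 windows of the same length, the share with at least 1 match was 11.4% for the FXR half-site, 24.6% for the GC box, 28.4% for the CCAAT box, 12.7% for the cyclic AMP half-site and 5.57% for the AP-1 site. The inverted repeat was found in 1 window. The St3gal5 stretch held 1 GC box, 1 CCAAT box and 1 cyclic AMP half-site, whose first bases lie 124, 78 and 58 bases before the start. The A4galt stretch held 1 AP-1 site and 1 GC box, 147 and 65 bases before the start. None of the 7 matched windows held the letters of the FXR half-site or of its inverted repeat, which says only that they are not in these windows. GC content was 69% in the St3gal5 stretch and 60% in the A4galt stretch.

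St3gal5, which encodes GM3 synthase, was the member with the largest difference between the groups. The gene (NM_011375, 7 exons) lies on mm10 chromosome 6, 72097608 to 72154570, on the plus strand. Its level was 62.9, 70.2 and 73.1 CPM in DMSO A, B and C, and 191, 177 and 183 CPM in OCA A, B and C. Every OCA library thus stood well above every DMSO library, and the spread within each group was small beside the gap. The means were 68.8 ± 5.25 and 184 ± 6.87 CPM (SD, n = 3), a log2 fold change of 1.42 (SE 0.07) or 2.67-fold. Among 10735 tested genes with a mean of at least 5 CPM, 14 had a larger log2 fold change. The underlying counts were 840 to 1124 in DMSO and 2307.5 to 2540 in OCA. GENCODE lists 4 protein-coding transcripts of the gene, and the table does not separate them.

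A4galt, which encodes the synthase of globotriaosylceramide, was lower under OCA. The gene (NM_001170954, 3 exons) lies on chromosome 15, 83226722 to 83251731, on the minus strand. Its level was 54.8, 54.5 and 56.0 CPM in DMSO A, B and C, and 39.3, 45.0 and 38.7 CPM in OCA A, B and C. The DMSO libraries were close together, and the OCA libraries all lay below them, with OCA B nearest. The means were 55.1 ± 0.800 and 41.0 ± 3.48 CPM, a log2 fold change of -0.43 (SE 0.08) or 1.34-fold lower. Among the 10735 genes with a mean of at least 5 CPM, 302 had a lower log2 fold change.

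Since these enzymes compete for lactosylceramide, their transcripts were also expressed per kilobase of transcript length. They were set against a sum over 4 enzymes that extend lactosylceramide. That sum took in St3gal5, A4galt, B4galnt1 and B3gnt5, which starts the lacto series. It is not complete: A3galt2, which also adds galactose to lactosylceramide, was left out, with 0.277 CPM per kilobase in DMSO and 0.194 in OCA. The St3gal5 share was 49.3%, 51.01% and 52.0% in DMSO A, B and C, and 80.3%, 76.0% and 79.5% in OCA A, B and C. The A4galt share was 49.3%, 45.5% and 45.7% in DMSO A, B and C, and 19.0%, 22.2% and 19.3% in OCA A, B and C. Transcripts of the ganglioside and globo branches were thus near parity in DMSO, with a St3gal5 to A4galt ratio of 1.09 ± 0.0745, and uneven in OCA, with a ratio of 3.92 ± 0.437. The groups did not overlap in either share. The other enzymes held little of the sum, so these shares are nearly complements of each other. With genes chosen for known differences, the lack of overlap is no separate result. The A4galt level itself went from 25.9 ± 0.376 CPM per kilobase in DMSO to 19.3 ± 1.64 in OCA. That of St3gal5 went from 28.1 ± 2.15 to 75.1 ± 2.81, so the A4galt share also fell through the rise of St3gal5. The summed level of the 4 enzymes was 55.4 ± 2.80 CPM per kilobase in DMSO and 95.6 ± 1.45 in OCA. B3gnt5 had 6 counts in all of DMSO and 16 in all of OCA, and it held at most 0.149% of the sum in any library. These shares are of transcripts, weighted by 1 transcript length per gene, and lipids were not measured.

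**Figure D1:**
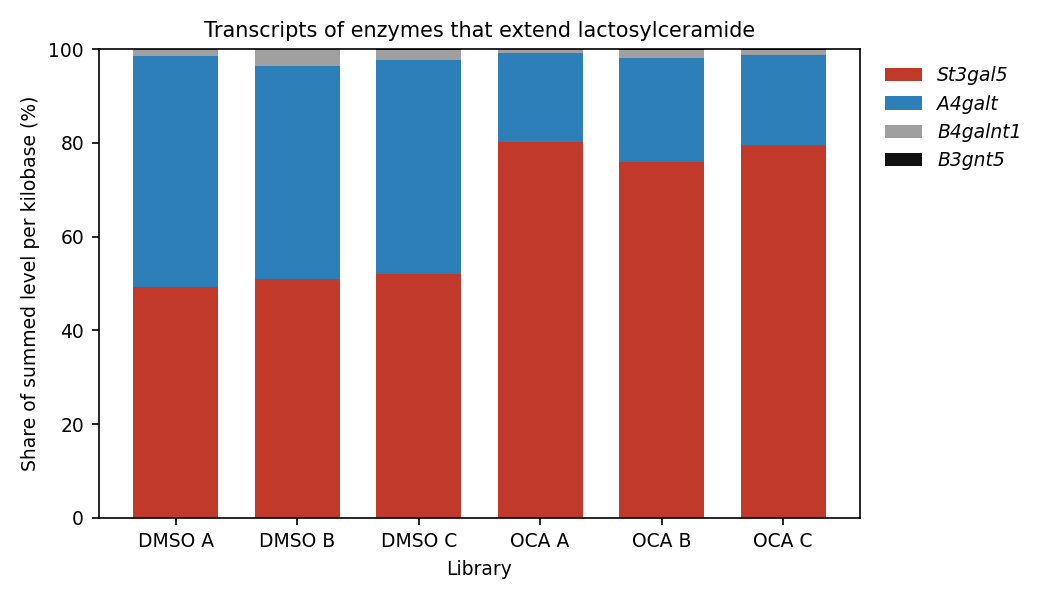
Stacked bars give, for each of the 6 libraries (x axis), the percentage of the summed level per kilobase held by St3gal5, A4galt, B4galnt1 and B3gnt5 (y axis). St3gal5 holds 49.3% to 52.0% in the DMSO libraries and 76.0% to 80.3% in the OCA libraries, and A4galt takes nearly all of the rest.

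The enzymes before the branch point did not share the St3gal5 difference. Ugcg encodes glucosylceramide synthase, which commits ceramide to the pathway. It had 82.1, 72.8 and 62.5 CPM in DMSO A, B and C, and 61.4, 70.5 and 59.2 CPM in OCA A, B and C. The groups overlapped, and the log2 fold change was -0.19 (SE 0.09), with -0.08 without DMSO A and -0.28 without DMSO C. B4galt5, the main lactosylceramide synthase gene, had 289, 266 and 258 CPM in DMSO A, B and C, and 266, 379 and 240 CPM in OCA A, B and C. OCA B stood apart at the top and the other 5 libraries were mixed. The log2 fold change of B4galt5 was 0.12 (SE 0.11) with all libraries and -0.10 without OCA B, so its direction rests on that library. B4galt6, a second lactosylceramide synthase gene, had 1.76 to 3.98 CPM in DMSO and 1.96 to 4.06 CPM in OCA, from 128 and 107 counts per group. The ratio of its summed counts, OCA over DMSO scaled for depth, was 0.938, with an exact 95% interval of 0.719 to 1.22. Its log2 fold change was -0.08 (SE 0.38), with 12 of 16 alternative fits below 0 and 4 above. Per kilobase, B4galt5 made up 99.0% to 99.5% of the level of the pair in every library, in both groups.

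The enzymes after GM3 ranged from abundant to barely detected. B4galnt1 adds N-acetylgalactosamine to GM3, GD3 and lactosylceramide. It had 1.75, 4.85 and 3.16 CPM in DMSO A, B and C, and 1.65, 3.99 and 2.51 CPM in OCA A, B and C. The groups overlapped over nearly their whole range, and the letter B library was the highest in each. The log2 fold change of B4galnt1 was -0.23 (SE 0.39) and ran from -0.93 to 0.16 over the alternatives. Its exons overlap those of Slc26a10 on the opposite strand over 715 bases, and no label states whether counting used strand, so its counts may include reads of that gene. St8sia1, which makes GD3 from GM3, had 0, 3 and 1 counts in DMSO A, B and C, and 0, 3 and 0 counts in OCA A, B and C. The ratio of those sums was 0.842, with an interval of 0.123 to 4.98. At this depth a change in St8sia1 could not be detected, and the 3-count floor over a group is 0.0683 CPM in DMSO and 0.0767 CPM in OCA. Its exons overlap the opposite-strand gene Gm7457 over 149 bases.

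B3galt4 and St3gal2 act on the chains that B4galnt1 starts. B3galt4, which adds galactose to give GM1, GD1b and GA1, had 5.52, 7.86 and 5.04 CPM in DMSO A, B and C, and 8.44, 6.90 and 6.56 CPM in OCA A, B and C. DMSO B lay within the OCA range, and the log2 fold change was 0.26 (SE 0.23), with 0.46 without DMSO B, 0.14 without DMSO C and 0.14 without OCA A. St3gal2, a sialyltransferase that makes GD1a and GT1b and also acts on glycoproteins, had 213, 222 and 203 CPM in DMSO A, B and C, and 230, 235 and 245 CPM in OCA A, B and C. Every OCA library was above every DMSO library, but the gap was small: the log2 fold change was 0.16 (SE 0.06), and it did not pass the threshold of the fit across all genes.

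Neu3 encodes the sialidase of the plasma membrane, which acts mainly on gangliosides. It had 27.0, 27.5 and 31.1 CPM in DMSO A, B and C, and 23.4, 25.0 and 23.1 CPM in OCA A, B and C. The OCA libraries all lay below the DMSO libraries, and the log2 fold change was -0.26 (SE 0.11), which did not pass the threshold either.

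**Figure D2:**
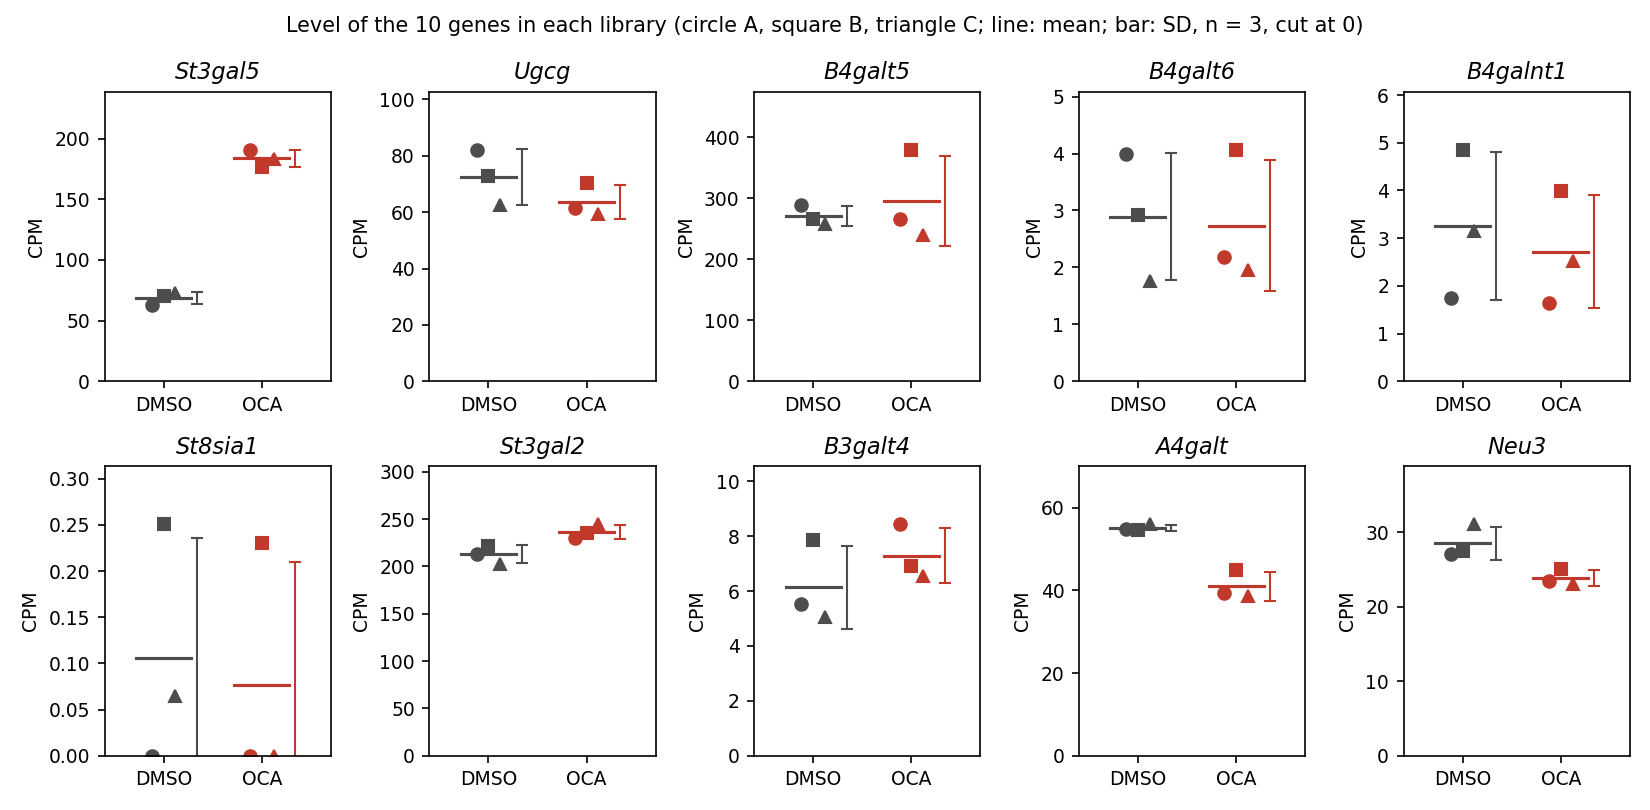
Each panel shows 1 gene, with CPM on the y axis (each panel has its own scale, starting at 0) and the DMSO and OCA libraries as points (circle A, square B, triangle C) beside the mean (line) and SD (bar, n = 3, cut at 0). The St3gal5 groups are far apart (62.9 to 73.1 against 177 to 191 CPM), the A4galt groups are apart in the other direction, and OCA B is the highest point for B4galt5.

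In the fit of OCA against DMSO across 12687 tested genes (edgeR's quasi-likelihood test, Benjamini-Hochberg adjusted p under 0.05), 276 genes were called higher, 2.18% of those tested, and 384 were called lower, 3.03%. With offsets for the trend on transcript length these counts were 378 and 227, so that 62.5% of the called genes were higher, against 41.8%. Of the 10 genes, 9 passed the filter on low counts, and St8sia1 did not. Among these 9, St3gal5 was called higher, A4galt was called lower and 7 were not called. Their median log2 fold change was -0.08, against 0.00 over all tested genes, with 4 above 0 and 5 below. Every OCA library was above every DMSO library in 2 of the 9, St3gal5 and St3gal2, and below in 2, A4galt and Neu3. The same held upward for 11.6% and downward for 11.3% of all tested genes. Because the genes were chosen with this contrast known, nothing is read from these counts. The calls of St3gal5 and A4galt were kept in all 16 alternative fits, with log2 fold changes from 1.36 to 1.47 and from -0.50 to -0.39. Those fits use the same libraries, so they speak only of how far the values depend on the processing and on single libraries.

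Levels between genes can be compared per kilobase of transcript. In DMSO the order of mean level in CPM per kilobase was B4galt5 (64.6 ± 3.78), St3gal2 (47.7 ± 2.14), St3gal5 (28.1 ± 2.15), A4galt (25.9 ± 0.376), Ugcg (19.5 ± 2.64), Neu3 (8.55 ± 0.669), B3galt4 (3.90 ± 0.958), B4galnt1 (1.32 ± 0.631), B4galt6 (0.498 ± 0.192) and St8sia1 (0.0117 ± 0.0145). Only the neighbours St3gal5 and A4galt had overlapping ranges over the 3 DMSO libraries. B4galnt1 and B3galt4, which build the ganglioside core between the steps of St3gal5 and St3gal2, were thus below both of those sialyltransferases. In OCA, St3gal5 came first with 75.1 ± 2.81 CPM per kilobase, and its range overlapped that of B4galt5 (70.3 ± 17.6). St3gal2 came next with 53.1 ± 1.65, then A4galt with 19.3 ± 1.64 and Ugcg with 17.2 ± 1.61, whose ranges overlapped. The remaining genes kept their DMSO order, and only B4galnt1 and B4galt6 overlapped among them. The other 9 genes kept their order relative to each other, and St3gal5 moved up past B4galt5 and St3gal2.

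**Figure D3:**
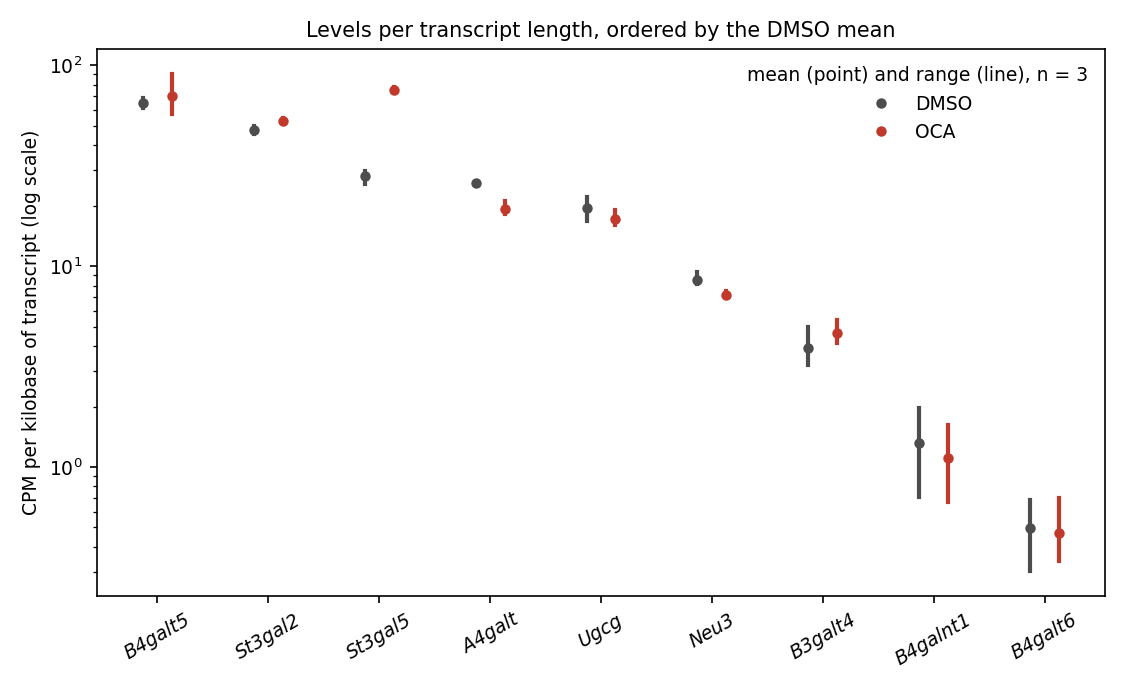
CPM per kilobase (y axis, log scale) is plotted for 9 of the genes (x axis, ordered by the DMSO mean), with the mean as a point and the range of 3 libraries as a line; St8sia1, at 0 in some libraries, is left out. St3gal5 moves from the third highest mean in DMSO (28.1) to the highest in OCA (75.1), while the order of the other genes is the same in both groups.

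The rest of the pathway was examined through 5 lists with 86 genes, of which 66 passed the filter. Of these, 3 rose (4.55%, against 2.18% of all tested genes), 4 fell (6.06%, against 3.03%) and 59 did not pass. Their median log2 fold change was 0.02. The called genes were spread over 4 of the lists, and the fifth had none. At an unadjusted p under 0.05, 8 of the 66 were higher (12.1%, against 8.26% of all tested genes) and 12 were lower (18.2%, against 10.7%). Counts of single lists, given below, are to be read against the same shares: 2.18% and 3.03% for called genes, and 8.26% and 10.7% unadjusted. The lists were drawn up with earlier results of these data in view. Their shares are thus a description from which nothing is read, and the p-values printed below for list genes carry the same limit. The 20 genes that did not pass the filter had at most 51 counts over the 6 libraries, and 8 of them had none.

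Ceramide supply had 1 of 15 tested genes higher (6.67%) and none lower, with a median log2 fold change of 0.02. At an unadjusted edgeR p under 0.05, 2 of the 15 were higher (13.3%) and 2 lower (13.3%). Neither DESeq2 nor limma-voom called a lower gene, but Cers6, a ceramide synthase gene, was called lower with no low-count filter. Cers6 and Kdsr were called lower without OCA B. Ormdl2 (log2 fold change 0.21 in the planned fit) was called higher without OCA B, and without OCA B and DMSO A. The gene called higher in the planned fit was Cers4, another ceramide synthase gene. It had 59.9, 60.3 and 63.9 CPM in DMSO A, B and C, and 73.4, 74.3 and 77.4 CPM in OCA A, B and C. All OCA values lay above all DMSO values (log2 fold change 0.29, SE 0.07, edgeR adjusted p = 0.0243). Its call did not survive removal of OCA A, of OCA C, of DMSO A or of DMSO B. Sptlc1 and Sptlc2, the subunits of serine palmitoyltransferase, were among the 14 genes of this list that did not pass, with log2 fold changes of -0.02 and 0.03.

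Among 7 tested genes for other glycosphingolipid synthases and for sphingomyelin synthases, 1 rose (14.3%) and none fell. At an unadjusted edgeR p under 0.05, 1 was higher (14.3%) and 2 were lower (28.6%). DESeq2 and limma-voom called 0 lower, but Samd8 was called lower with no low-count filter, without OCA B, and without OCA B and DMSO A. Sgms1 encodes the Golgi sphingomyelin synthase, which uses ceramide for another end product. It had 82.5, 78.3 and 83.8 CPM in DMSO A, B and C, and 136, 123 and 129 CPM in OCA A, B and C. The groups were clearly apart (log2 fold change 0.66, SE 0.07, edgeR adjusted p = 2.64e-06), and the call was kept in all 16 alternative fits. For Sgms2, the sphingomyelin synthase of the plasma membrane, the means were 58.8 ± 2.94 CPM (DMSO) and 49.8 ± 2.88 CPM (OCA), which did not pass (log2 fold change -0.24, SE 0.08). The list median was -0.03.

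Relatives of the member enzymes that act mainly on glycoproteins or other glycans had 1 of 14 tested genes higher (7.14%) and 1 lower (7.14%). Their median log2 fold change was 0.05. Of the 14, 2 were higher (14.3%) and 2 lower (14.3%) at an unadjusted edgeR p under 0.05. St6gal1 adds alpha2,6-linked sialic acid to N-glycans. It had 19.2, 21.9 and 20.8 CPM in DMSO A, B and C, and 35.6, 42.2 and 30.9 CPM in OCA A, B and C. The groups did not overlap (log2 fold change 0.82, SE 0.12, edgeR adjusted p = 0.000231), and the call of St6gal1 was kept in all 16 alternative fits. St3gal1, which sialylates O-glycans, had 162, 165 and 163 CPM in DMSO A, B and C, and 130, 143 and 123 CPM in OCA A, B and C. It was lower in every OCA library (log2 fold change -0.31, SE 0.07, edgeR adjusted p = 0.0104). The call of St3gal1 was lost without OCA A or OCA C and with offsets for a length trend. B4galt1 was also called lower with no low-count filter, without OCA B, and without OCA B and DMSO A. St3gal3 and St3gal4 were above 0 without passing, at 0.32 and 0.12. Within the ST3 family, therefore, St3gal5 was called higher, St3gal1 was called lower, and St3gal2, St3gal3, St3gal4 and the weakly expressed St3gal6 were not called.

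Breakdown of glycosphingolipids had 3 of 16 tested genes lower (18.8%, against 3.03% of all tested genes) and none higher, with a median log2 fold change of -0.10. At an unadjusted edgeR p under 0.05, 5 of the 16 were lower (31.2%) and 0 higher, and neither DESeq2 nor limma-voom called a higher gene. Hexa and Gm2a encode the alpha subunit of hexosaminidase and its activator protein, which together degrade GM2, and Psap encodes the precursor of the saposins, activators of several lysosomal hydrolases. Hexa had 146, 156 and 155 CPM in DMSO A, B and C, and 117, 138 and 124 CPM in OCA A, B and C (log2 fold change -0.27, SE 0.07, edgeR adjusted p = 0.0303). Gm2a had 27.7, 28.4 and 21.6 CPM in DMSO A, B and C, and 17.5, 21.05 and 17.8 CPM in OCA A, B and C (log2 fold change -0.46, SE 0.13, edgeR adjusted p = 0.0441). Psap had 337, 386 and 358 CPM in DMSO A, B and C, and 228, 331 and 225 CPM in OCA A, B and C (log2 fold change -0.46, SE 0.11, edgeR adjusted p = 0.0170). The groups did not overlap in any of these genes, but OCA B lay close to DMSO for Psap and DMSO C close to OCA for Gm2a. Every OCA library was below every DMSO library in 7 of the 16 genes, and in 11.3% of all tested genes. Every OCA library was above every DMSO library in 1 of the 16, and in 11.6% of all tested genes. Asah1 was called lower without OCA B, and without OCA B and DMSO A. The calls of Hexa, Gm2a and Psap were each lost without OCA A, without OCA C and without DMSO B. That of Hexa was also lost without DMSO C, that of Psap without DMSO C and with DESeq2 and robust estimation, and that of Gm2a without DMSO A and with DESeq2, limma-voom and the length trend. The galactosidase gene Glb1 (log2 fold change -0.09) and the lysosomal sialidase gene Neu1 (0.04) did not pass.

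None of 14 tested genes for lipid transfer and sugar donors passed the edgeR threshold, and the list median was 0.08. At an unadjusted edgeR p under 0.05, 3 of the 14 were higher (21.4%) and 1 lower (7.14%), and DESeq2 and limma-voom each called 1, Galk1. Their levels included 158 ± 8.60 and 184 ± 7.42 CPM for the galactokinase gene Galk1 in DMSO and OCA (edgeR adjusted p = 0.0514), which was called higher in 6 of 16 alternative fits. Nans, which encodes the sialic acid synthase, had 161 ± 9.85 and 181 ± 6.83 CPM. Cmas, the enzyme that activates sialic acid, and Slc35a1, its Golgi transporter, had log2 fold changes of 0.07 and 0.09 and did not pass.

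**Figure D4:**
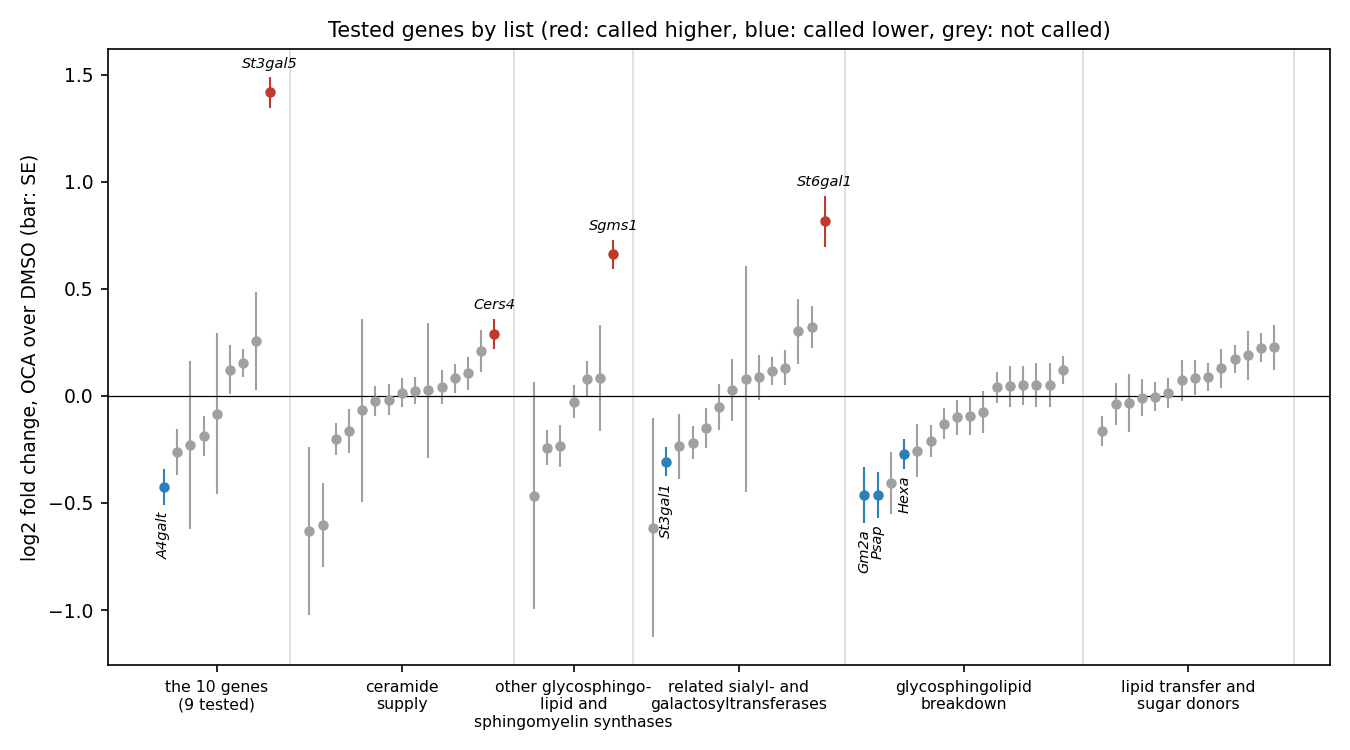
Each point is the log2 fold change of OCA over DMSO (y axis) of 1 tested gene with its SE, grouped by list along the x axis and sorted within it; red points were called higher, blue points lower and grey points not called. St3gal5 (1.42) stands above all other genes shown, followed by St6gal1 (0.82) and Sgms1 (0.66).

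The genes with the profile most like that of St3gal5 were Osgin1, Syt9 and Acap1. Likeness was the root mean square difference over the 6 libraries between log2 CPM profiles, each set to 0 at its DMSO mean, among tested genes with a mean of at least 5 CPM. It was 0.09 for Osgin1, an oxidative stress-induced growth inhibitor gene, 0.13 for the synaptotagmin gene Syt9 and 0.14 for Acap1, a GTPase-activating protein gene for ARF. Their log2 fold changes were 1.47, 1.35 and 1.37. With 6 libraries in 2 groups, this likeness mostly restates a similar size of difference between the groups.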

How the data were processed

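Polyadenylated RNA of 6 libraries was analysed, 3 per group, with groups taken from the sample labels and columns matched by title. The authors deposited 1 table of counts per gene, exon counts according to its name. STAR, HOMER and mm10 are named in the submitters' processing notes, and versions, settings and strandedness are not stated there. The deposited values are estimated counts in steps of 0.5, rounded to whole numbers for tests (ties to even); 0 count columns were left out. The comparison was fitted in R 4.3.3 with edgeR 4.0.16 (TMM scaling after filterByExpr, then glmQLFit and glmQLFTest, two-sided, no replicate block, threshold 0.05). The code was also run on simulated counts whose spread followed the dispersion trend alone, which cannot show how the fit behaves on these libraries. An SE is the size of the log2 fold change divided by the square root of F. CPM uses unrounded counts on TMM-scaled library sizes. Replicates were not copies of 1 library (chi-square per degree of freedom 4.30 to 7.78). Members, lists and motifs were chosen with earlier results of these data, and the promoter sequences, in view. Named genes were the members, Nr1h4 and Abcb11, up to 4 called genes per list (or the 2 most abundant), and the 3 most like St3gal5; other list genes were named after their values were seen. Alternatives were DESeq2 1.42.0, limma-voom (limma 3.58.1), 2 scalings, 2 filters, robust estimation, a replicate block and each library left out. Leaving out OCA B with DMSO A, and offsets from a loess curve on transcript length, were added after seeing the data. Promoters came from RefSeq, and exons from GENCODE M21 of the same build.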

Additional observations from a re-analysis of the deposited data

How the results depend on the processing

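St3gal5, A4galt, Sgms1 and St6gal1 kept their direction and call in all 16 alternatives, and the counts of called members stayed at 1 higher and 1 lower. Leaving out 1 library gave 161 to 363 genes called higher, 104 to 758 called lower, 2 to 5 pathway genes called higher and 0 to 9 called lower. The lowest count of lower genes came without OCA A and without DMSO A, and the highest without OCA B. With no low-count filter, 703 genes and 7 pathway genes were called lower. Without OCA B and DMSO A together these counts were 605 and 7. In these fits Sgms1 had edgeR adjusted p-values of 1.43e-15 and 1.30e-16, against 2.64e-06 in the planned fit. Its SE was 0.08 in each, against 0.07. Their p-values may thus understate the spread between libraries, and calls added in them carry that limit. With the length trend, 227 genes and 2 pathway genes were called lower. The share of higher genes among those called was then 62.5%, against 41.8%. DESeq2 called 2 pathway genes lower. Without length scaling the DMSO share of St3gal5 in the lactosylceramide branch was 54.0%, against 50.8%. The cause of these differences was not tested. With the replicate block, 306 genes were called higher and 508 lower, and the St3gal5 log2 fold change was 1.42. Libraries with the same letter (A, B and C) had correlations of 0.01, -0.05 and 0.08 in their deviations from the group means. The best correlations of OCA A, B and C with another letter were 0.01, 0.10 and 0.04. OCA B thus did not correlate best with its own letter, while OCA C did and OCA A did so barely (0.0077 against 0.0076). The planned fit did not take the letters as pairs. Depth limits St8sia1, B4galt6, B4galnt1 and B3gnt5, for which small changes cannot be measured.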
